A study of Drosophila melanogaster with 18 samples.

Results

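The C/D methylation snoRNA genes are small RNA genes whose FlyBase symbol starts with snoRNA:Me and goes on with the RNA, the base and the position that the snoRNA directs for methylation. By this rule 73 of the 15682 genes in the deposited table were members, of which 19 name 18S rRNA, 51 name 28S rRNA, 1 names 5.8S rRNA and 2 name U6 snRNA. Their levels were read in ovaries labelled as 3 mutants of the SAGA coactivator, each set against its own FRT control. By their labels the mutant ovaries carried germline clones for ada2b, whose product belongs to the acetyltransferase part of SAGA, for Ataxin-7, or for non-stop. The products of both these genes belong to its deubiquitinase part, and non-stop encodes the enzyme. The FRT controls are labelled wild type. Each of the 6 groups had 3 libraries that the labels call biological replicates, so that 18 libraries fell into 3 experiments. Germline clones are made by heat-induced recombination at FRT sites, here with larvae heat shocked at 37 °C for 2 h on consecutive days and flies otherwise kept at 25 °C, and the dissected ovary also holds somatic follicle cells. All females were fed yeast before dissection. The alleles and the ages of the females are not given in the sources used here.

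C/D snoRNAs carry the short C and D boxes and assemble with the methyltransferase fibrillarin and its partners into particles in the nucleolus. There, base pairing of the guide with rRNA or snRNA places a methyl group on the 2′ oxygen of 1 nucleotide. In flies most of these snoRNAs are cut out of the introns of other genes, among them genes for ribosomal proteins and spliced noncoding genes, named Uhg, that are known mainly as snoRNA carriers. Mature snoRNAs have no poly(A) tail, whereas the RNA sequenced here is labelled poly(A) RNA. One value per gene does not say which form of the RNA the reads came from.

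Among the 73 members, 34 are the only annotated gene for their site, and the other 39 are copies of 16 sites, marked by a final letter in the symbol. Some of the 34, such as Me18S-A28a and Me28S-G3277a, also end in a letter, but no other copy is annotated. Reads could be split between near-identical copies, so single copies are uncertain. The genes are 46 to 116 bp long with a median of 79 bp. In the BDGP6.54 annotation 72 of them lie inside a host gene on the same strand, 63 within an intron and 9 overlapping an annotated exon. Uhg genes host 30, ribosomal protein genes 17 and other genes 25, and 8 members lie inside a second gene of the same strand too. As the use of strand in counting is not stated, reads of a member and of its host or an antisense gene cannot be told apart where they overlap.

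Levels are given in RPKM, reads per kilobase of gene and per 1e+06 reads. The value of 1 read could be recovered for every gene, so that read numbers are given too. In all 18 libraries together the members had 10824 reads, of which Me18S-C1968 took 12.1% and the first 10 genes 51.2%. With 22608757 to 42020555 reads on genes per library, this left the median member, over all 73, with 2.33 to 10 reads per library, depending on the group, and 4 members were at 0 in every library. Ada2b was at 6.17, 7.80 and 8.75 RPKM in ada2b ovaries, against 45.4, 44.4 and 46.5 RPKM in FRT. The non-stop gene was at 1.52, 1.82 and 1.58 RPKM in non-stop ovaries, against 17.9, 21.4 and 24.0 RPKM in FRT. Atxn7, the fly Ataxin-7 gene, was at 12.5, 12.5 and 12.4 RPKM in the libraries labelled Ataxin-7, against 7.59, 7.92 and 7.65 RPKM in FRT. It was thus higher where a mutant of it is named, and the label could not be checked from its level.

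The summed level of the members was 803, 356 and 326.5 RPKM in ada2b ovaries, against 90.5, 151 and 82.4 RPKM in FRT. Every ada2b library lay above every FRT library, and ada2b replicate 1, the shallowest of the 18, lay far above the other 2. Per 1e+06 reads on genes, which needs no gene length, the members took 56.7, 30.0 and 26.7 in ada2b ovaries and 7.76, 12.1 and 6.78 in FRT. In the libraries labelled Ataxin-7 the summed level was 164, 242 and 290 RPKM, against 167, 245 and 96.9 RPKM in FRT, and the groups overlapped. Non-stop ovaries had 152.5, 210 and 148 RPKM, against 206, 163 and 166 RPKM in FRT, which overlapped too. Guides for 28S rRNA averaged 5.8-fold and guides for 18S rRNA 3.29-fold the FRT sum in ada2b ovaries. The 18S sum held Me18S-C1968, which moved the other way, and without that gene the members together stood at 5.69-fold.

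**Figure D1:**
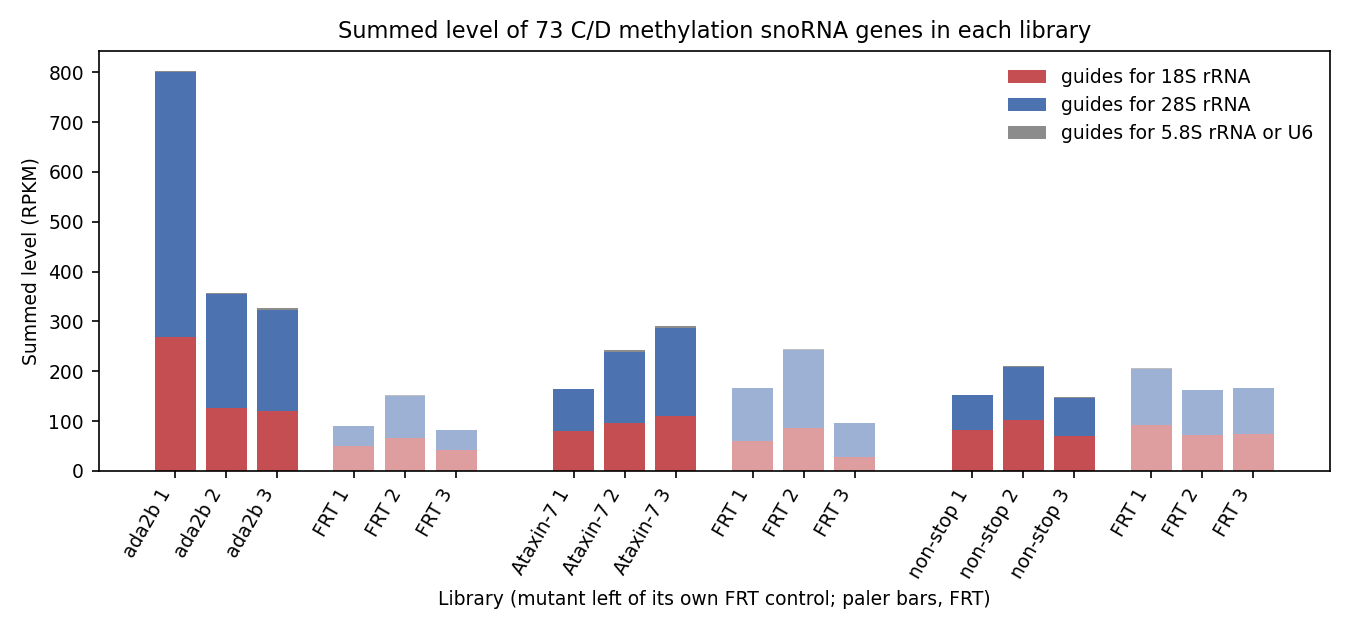
Summed level in RPKM (vertical axis, from 0) of the 73 C/D methylation snoRNA genes in each of 18 libraries, stacked by the RNA that the symbol names. The 3 ada2b libraries, 326.5 to 803 RPKM, all lie above their FRT libraries, 82.4 to 151 RPKM, while in the other 2 experiments mutant and FRT overlap.

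Changes of single genes were tested with limma on log2(RPKM + 1), over all genes with a mean of at least 1 RPKM in the 6 libraries of an experiment. Calls were made at 0.05 after Benjamini-Hochberg adjustment over every gene tested, and fold changes on this scale understate the change of low genes. In ada2b ovaries 45 of the 54 members tested rose and 1 fell. Of all 7674 genes tested, 67.9% were called, 25.6% higher and 42.3% lower. The median change of the members was 1.75 in log2, against -0.13 over all genes tested. The filter needs care here, because 26 of the 54 had an FRT mean under 1 RPKM and passed only through the ada2b libraries. Of the 28 with an FRT mean of at least 1 RPKM, 22 rose and 1 fell, with a median of 1.69. Over all 73 members, tested or not, 48 had 3 ada2b values above all 3 FRT values and 1 had them below, where 30.4% and 29.6% of the genes above 0 in this experiment did so.

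The balance of all genes depended on the scaling, whereas most members tested rose under each. Called genes were higher in 37.7% as deposited, in 47.7% after quantile normalization and in 59.5% when libraries were set to a common median, which put the median of all genes at 0.12. Under these scalings 37 and 48 members rose, and 38 rose in a fit of the reads with limma voom. Without ada2b replicate 1, 38 rose.

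Marker genes of other cell types moved in the same libraries. Germline markers (nos, osk, aub, otu and bam, 5 of 6 listed) summed to between 201 and 282 RPKM in ada2b ovaries, against 415 to 452 RPKM in FRT, and 4 of the 5 fell. The 6 follicle cell markers, among them the yolk protein genes Yp1, Yp2 and Yp3, summed to 20590 to 22830 RPKM in ada2b ovaries, against 10860 to 13980 RPKM in FRT, and 5 rose. The 4 muscle markers summed to 171 to 279 RPKM in ada2b ovaries, against 17.4 to 33.0 RPKM in FRT, and all 4 rose. None of these 15 genes was at 0. The 3 hemocyte markers summed to 4.6 to 7.26 RPKM in ada2b ovaries and 0.220 to 0.426 RPKM in FRT. The 3 fat body markers gave 4.79 to 33.8 RPKM in ada2b ovaries and 1 to 2.74 RPKM in FRT, where 2 of them were at 0 throughout. The 3 neuron markers summed to 0.788 to 0.953 RPKM in ada2b ovaries, against 0.173 to 0.223 RPKM in FRT, without overlap. The 5 testis markers summed to 0.0707 to 1.22 RPKM in ada2b ovaries, where 1 was at 0, against 0.0421 to 0.0644 RPKM in FRT, where 3 were at 0, also without overlap. The part of these cells in the members' change was not tested. In whole ovaries, moreover, fewer cells of a type and less RNA per cell cannot be told apart.

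Among the guides for 18S rRNA, 10 of 13 tested rose in ada2b ovaries and 1 fell, with a median of 1.95. Of the 7 with an FRT mean of at least 1 RPKM, 5 rose and 1 fell. Me18S-C1831, in an intron of the ribosomal protein gene RpL27A on chromosome arm 2L (BDGP6.54, 4457603 to 4457674), had 68.1, 32.5 and 30.5 RPKM in ada2b ovaries, against 3.60, 6.91 and 5.68 RPKM in FRT. All 3 ada2b values lay far above any FRT value, and the change was 2.74 ± 0.34 in log2 (SE, n = 3 each, limma adjusted p = 0.000553). Me18S-A425 overlaps an exon of RpL3 (3R, 11222841 to 11222924) as well as an antisense gene. It had 67.7, 29.4 and 25.6 RPKM in ada2b ovaries, against 6.18, 8.89 and 4.17 RPKM in FRT. The groups did not overlap here either, and the change was 2.41 ± 0.40 (limma adjusted p = 0.00186). Of the 2 members that did not pass, Me18S-A1374, which overlaps an exon of the dystrophin gene Dys, had 5.05, 11.3 and 11.0 RPKM in ada2b ovaries and 7.28, 9.51 and 7.31 RPKM in FRT. It was among the 5 members with the highest FRT levels and had a change of 0.10 ± 0.28.

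Among the guides for 28S rRNA, 35 of 41 tested rose in ada2b ovaries, with a median of 1.70, and 17 of the 21 with an FRT mean of at least 1 RPKM rose. Of the 3 members outside the rRNA guides for these subunits, MeU6-A47, MeU6-C68 and Me5.8S-G74, none reached the filter in this comparison. On the log2(RPKM + 1) scale the largest called change was that of Me28S-C2645c, 1 of 3 copies, which overlaps an exon of its host Uhg3. It had 27.5, 9.83 and 6.11 RPKM in ada2b ovaries, against 1.26, 0.995 and 0.390 RPKM in FRT. These stand for 42, 23 and 19 reads in ada2b ovaries and 4, 3 and 1 reads in FRT, so that the groups were far apart but the FRT values rested on few reads. With an FRT mean of 0.881 RPKM the gene passed the filter only through the ada2b libraries. The change was 2.82 ± 0.50 (limma adjusted p = 0.00245). Its rank is given for this scale alone, as members with no FRT read have only a lower bound. Me28S-G2173, in an intron of the ribosomal protein gene RpS16, had 22, 13.4 and 8.64 RPKM in ada2b ovaries, against 0.704, 3.34 and 0.436 RPKM in FRT, with a change of 2.74 ± 0.48 (limma adjusted p = 0.00248). Me28S-G2703c in Uhg5 had 24.8, 12.4 and 5.39 RPKM in ada2b ovaries, against 0.555, 1.76 and 1.03 RPKM in FRT. Its change was 2.66 ± 0.50 (limma adjusted p = 0.00314), and again no value overlapped. Me28S-A2113, in an intron of RpL30 (2L, 19008611 to 19008683) and the 28S guide with the highest FRT level, had 68.5, 25.0 and 27.8 RPKM in ada2b ovaries, against 5.82, 9.54 and 8.41 RPKM in FRT. It rose by 2.09 ± 0.38 (limma adjusted p = 0.00301).

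A pair of the tested members had no read in any of the 3 FRT libraries of the ada2b experiment. Me28S-C2645b had 18, 10 and 8 reads in ada2b ovaries and was at least 15.1-fold higher there, against a floor of 3 counts over the FRT group. Me28S-C3227b had 20, 12 and 7 reads in ada2b ovaries and was at least 16.3-fold higher against the same kind of floor. Such bounds cover counting error only. Both genes lie above the members' median on the fitted scale and at their bound alike, so the median does not depend on them.

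**Figure D2:**
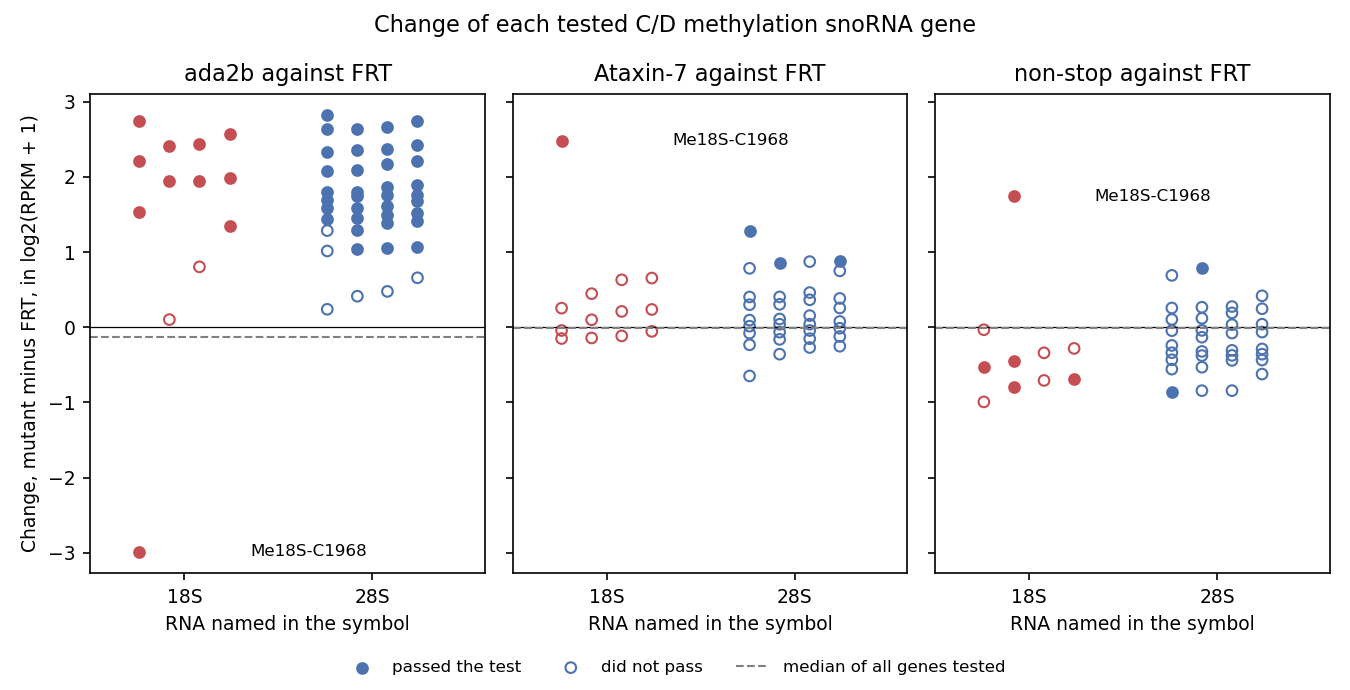
Change of each tested member, mutant minus its own FRT, in log2(RPKM + 1) (vertical axis), for guides named for 18S and for 28S rRNA. Filled points passed the test, open points did not, and the dashed line is the median of all genes tested; MeU6-A47, tested only in the libraries labelled Ataxin-7 at 0.56, is not drawn. In ada2b ovaries 45 of 54 members lie high and filled, while Me18S-C1968 is the low point there and the highest point in the other 2 comparisons.

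Me18S-C1968 differed from all other members tested, in that it alone fell in ada2b ovaries and it alone passed the test in all 3 comparisons. It lies in an intron of Swim, which encodes a secreted partner of Wingless (2R, 22197269 to 22197374, minus strand), and is a single-copy gene. It had 1.39, 1.51 and 2.50 RPKM in ada2b ovaries, against 22.7, 26.1 and 15.2 RPKM in FRT. In reads these were 3, 5 and 11 in ada2b ovaries, against 102, 111 and 55 in FRT. The ada2b libraries thus lay far below any FRT library, with a change of -2.98 ± 0.23 (limma adjusted p = 9.15e-05).

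In the libraries labelled Ataxin-7, Me18S-C1968 had 39.0, 28.1 and 33.7 RPKM, against 4.94, 3.75 and 7.29 RPKM in their FRT. All 3 lay well above FRT, at 2.48 ± 0.20 (limma adjusted p = 0.000195). In non-stop ovaries it had 33.7, 41.2 and 38.8 RPKM, against 9.07, 7.34 and 17.6 RPKM in FRT. Again the groups did not overlap, and the change was 1.74 ± 0.27 (limma adjusted p = 0.00148). The FRT level itself differed between experiments, at 21.3 RPKM ± 5.58 in the ada2b experiment, 5.33 ± 1.8 in the Ataxin-7 experiment and 11.3 ± 5.47 in the non-stop experiment (SD, n = 3 each). These levels were normalized separately and are given side by side without a test. The host moved less, as Swim changed by 0.32 (limma adjusted p = 0.02) in ada2b ovaries, by 0.26 (limma adjusted p = 0.0215) in the libraries labelled Ataxin-7 and by -0.10 (limma adjusted p = 0.532) in non-stop ovaries. The other tested gene within 10000 bp, Vps35, a retromer subunit gene, did not pass, at -0.17 in ada2b ovaries, 0.07 in the libraries labelled Ataxin-7 and 0.00 in non-stop ovaries.

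**Figure D3:**
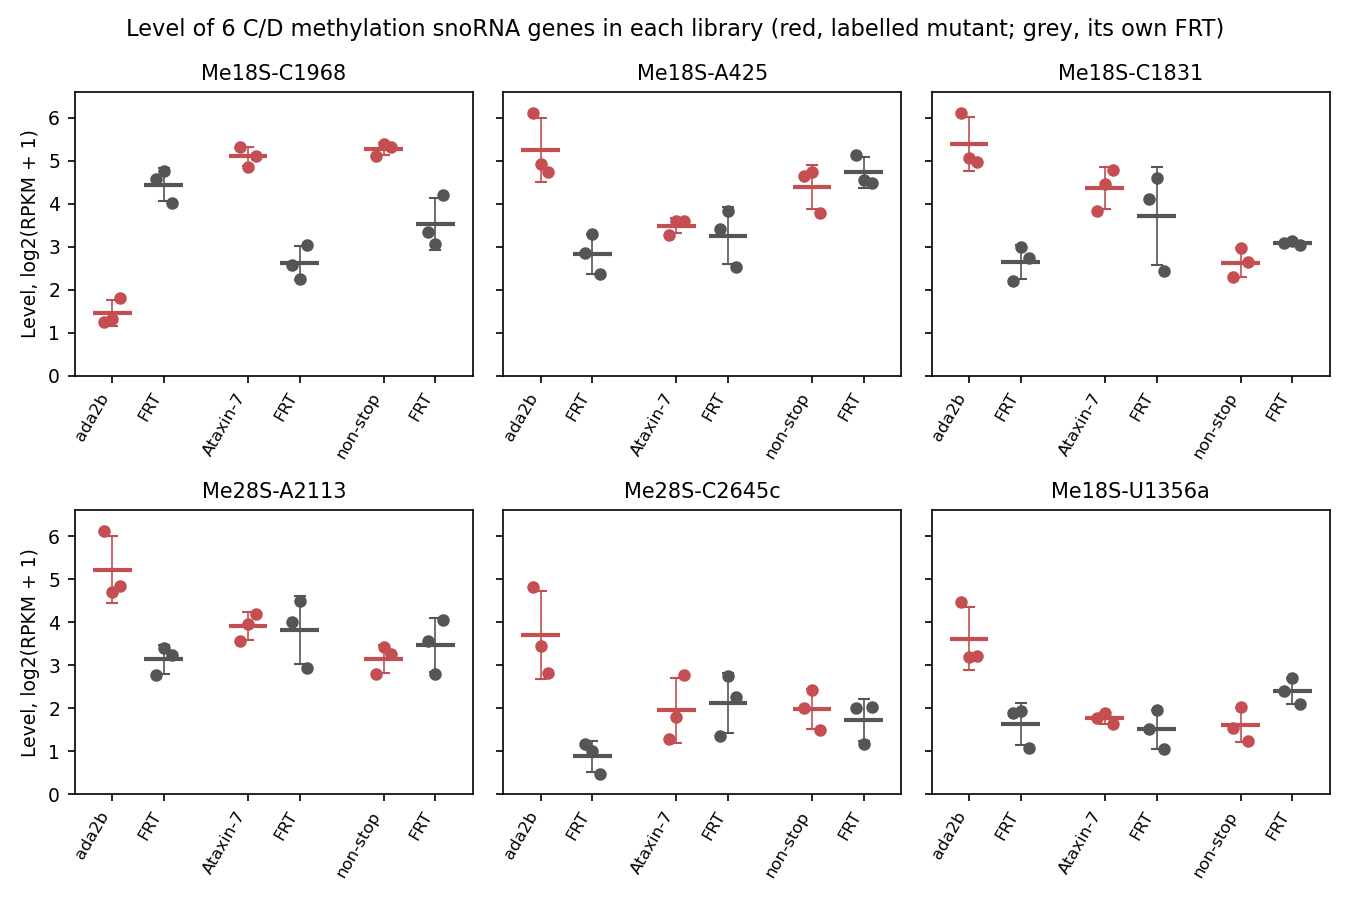
Level in log2(RPKM + 1) of 6 members in each library (points), with the group mean and SD (lines and bars, n = 3), for each of the 3 experiments. Me18S-C1968 is low in ada2b ovaries, at 1.39 to 2.50 RPKM, and high in non-stop ovaries and in the libraries labelled Ataxin-7, while the other 5 members lie above their FRT without overlap in ada2b ovaries only, and Me18S-C1831 and Me18S-U1356a lie below FRT in non-stop ovaries.

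In the libraries labelled Ataxin-7, 4 of 47 members tested rose, where 44.3% of all 7428 genes tested were called, 20.0% higher and 24.3% lower. Of the 47, 5 had an FRT mean under 1 RPKM and passed the filter only through the libraries labelled Ataxin-7, among them 2 of the 4 that rose, Me28S-G1083b and Me28S-G3277a, so that 2 of the other 42 rose. The members' median change was 0.11, against -0.02 over all genes. None fell by limma, at an unadjusted p under 0.05 the numbers were 5 higher and 0 lower, and limma voom also called 4 higher and 0 lower. Of all 73 members, 4 had values above FRT without overlap and 0 below, where 21.7% and 22.3% of the genes above 0 did so. The muscle markers summed to 60 to 83.2 RPKM in these libraries, against 29.7 to 43.0 RPKM in FRT, and all 4 rose, while the germline and follicle sums, at 548 to 565 and 14890 to 17770 RPKM, overlapped those of FRT, at 564 to 611 and 13450 to 16660 RPKM. Of the germline markers nos and bam fell. The neuron sums, at 0.4305 to 0.486 RPKM in these libraries and 0.264 to 0.344 RPKM in FRT, did not overlap, whereas the testis, fat body and hemocyte sums did. Their part in the members' change was not tested.

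Beside Me18S-C1968, the members that rose in the libraries labelled Ataxin-7 were Me28S-G3277a in Uhg1 and a pair of copies that overlap exons of Nop60B, the gene of the fly pseudouridine synthase dyskerin. Me28S-G1083a had 5.18, 4.44 and 6.22 RPKM in these libraries, against 3.11, 3.04 and 1.36 RPKM in FRT, a change of 0.88 ± 0.22 (limma adjusted p = 0.0161). Me28S-G1083b had 1.31, 1.6 and 2.65 RPKM, against 0.35, 0.342 and 1.03 RPKM in FRT, a change of 0.86 ± 0.22 (limma adjusted p = 0.0174). Both pairs of groups were separate, but the second gene had only 4, 5 and 8 reads in these libraries and 1, 1 and 3 reads in FRT. Me28S-G3277a changed by 1.27 and its groups overlapped at 2 reads. The count of 4 was 1 without Ataxin-7 replicate 3 and 2 without FRT replicate 1. Me28S-G1083a lost its call without Ataxin-7 replicate 3 (limma adjusted p = 0.0525), and Me28S-G1083b lost it without FRT replicate 1 or FRT replicate 2 (limma adjusted p = 0.0608 and 0.0521). Nop60B itself rose by 0.21 ± 0.03 (limma adjusted p = 0.00292).

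In non-stop ovaries 2 of 44 members tested rose and 5 fell, where 50.8% of all 7492 genes tested were called, 25.7% higher and 25.0% lower. The median was -0.30, against -0.01 over all genes, and 13 of the 44 had a positive change. The filter acted in both directions here, as 7 of the 44 passed only through the FRT libraries and 1 only through the non-stop libraries. Without overlap, 2 of the 73 members lay above FRT and 6 below, against 25.4% and 20.8% of the genes above 0. Germline, follicle cell and muscle markers summed to 371 to 424, 3199 to 5586 and 47.0 to 88.3 RPKM in non-stop ovaries, and overlapped the FRT sums of 381 to 394, 4461 to 7525 and 45.4 to 65.5 RPKM. Of 5 germline markers 2 rose and 1 fell, and of 5 follicle cell markers tested 2 fell. The testis sums, at 0.0483 to 0.109 RPKM in non-stop ovaries and 0.26 to 0.403 RPKM in FRT, did not overlap, whereas the fat body, hemocyte and neuron sums did. Their part in the members' change was not tested.

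The members that fell in non-stop ovaries were mostly guides for 18S rRNA, 4 of 10 tested, against 1 of 34 guides for 28S rRNA, and no test was made of that difference. Me28S-C3227b in Uhg5 had 0.951, 1.02 and 0.338 RPKM in non-stop ovaries, against 2.12, 1.94 and 2.45 RPKM in FRT, at -0.86 ± 0.17 (limma adjusted p = 0.00501), and with means of 0.771 RPKM in non-stop ovaries and 2.17 RPKM in FRT it passed the filter only through FRT. Me18S-U1356a in Uhg8 had 1.92, 3.11 and 1.37 RPKM in non-stop ovaries, against 4.29, 5.51 and 3.31 RPKM in FRT, at -0.79 ± 0.22 (limma adjusted p = 0.0197). In neither gene did a non-stop value reach the lowest FRT value. Me18S-G1620 in Uhg2 changed by -0.68 ± 0.20 and Me18S-C1831 by -0.45 ± 0.16, also without overlap, and Me18S-C419 in RpL15 by -0.52 with overlap. Of the members that rose, Me28S-C2645a, which overlaps an exon of its host Uhg3, had 2.03, 1.82 and 1.8 RPKM in non-stop ovaries, against 0.754, 0.415 and 0.871 RPKM in FRT, at 0.79 ± 0.13 (limma adjusted p = 0.00229). It stood on 5 to 6 reads in each non-stop library and 1 to 2 in each FRT library, and passed the filter only through the non-stop libraries. Leaving out 1 library ended the call of Me18S-U1356a (FRT replicate 2, non-stop replicate 1 or 3), of Me18S-G1620 (FRT replicate 1 or 3, non-stop replicate 1) and of Me18S-C1831 (any library but non-stop replicate 2), at limma adjusted p of 0.0576 to 0.112. The count of 5 was 1 with limma voom, 0 when all 18 libraries were fitted together, 2 without FRT replicate 1, non-stop replicate 1 or non-stop replicate 3, and 9 without non-stop replicate 2.

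The difference between changes was tested as an interaction over 12 libraries, each mutant against its own FRT, so that no control was shared. Genes needed a mean of at least 1 RPKM over the 12 libraries, which a member could reach through the ada2b libraries alone. Me28S-C2645b did so against non-stop, at a mean of 6.21 RPKM in ada2b ovaries and 0 in their FRT. Its means were 0.838 RPKM in non-stop ovaries and 0.554 RPKM in their FRT. How many members passed in this way was not counted, so the counts with ada2b carry this limit. The ada2b change exceeded the non-stop change in 40 of 52 members tested and was below it in 1, where 70.6% of all genes were called, 27.0% and 43.6% in these directions. It exceeded the change in the libraries labelled Ataxin-7 in 32 of 54 and was below it in 1, where 68.5% of all genes were called, 26.3% and 42.2% in these directions. The count of 32 was 20 with limma voom, 21 without FRT replicate 3 of the ada2b experiment, 20 without Ataxin-7 replicate 1 and 19 without FRT replicate 2 of the Ataxin-7 experiment. The member below in both was Me18S-C1968, at -4.72 ± 0.39 against non-stop and -5.46 ± 0.34 against Ataxin-7 (limma adjusted p = 3.46e-06 and 4.29e-07). Between Ataxin-7 and non-stop, 3 of 48 members differed, all higher with Ataxin-7, where 37.5% of all genes differed, 16.8% upward and 20.7% downward, and limma voom called 1. Without FRT replicate 1 of the Ataxin-7 experiment or non-stop replicate 3 this count was 0, and without either Ataxin-7 replicate 2, Ataxin-7 replicate 3 or FRT replicate 3 of the Ataxin-7 experiment it was 1. None was lower by limma, with 1 lower at an unadjusted p under 0.05 and 0 by limma voom.

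Copies of a site were described together because their reads may be shared out between them. In ada2b ovaries 25 of 29 tested members with annotated copies rose, with a median of 1.68, and 20 of 25 single-copy members rose, with a median of 1.87. With an FRT mean of at least 1 RPKM these were 14 of 16 and 8 of 12. The 3 copies of Me18S-U1356 lie in introns of Uhg8. Copy a had 34, 20 and 27 reads in ada2b ovaries and 9, 9 and 3 in FRT, copy b had 56, 21 and 30 against 9, 9 and 4, and copy c had 38, 15 and 16 against 2, 3 and 3. All 3 rose, by 1.99 to 2.43, the highest being copy c, which passed the filter only through the ada2b libraries. In the FRT libraries of other experiments the copies stood in another order, since copy b had 17, 36 and 9 reads in the FRT of the Ataxin-7 experiment but 3, 2 and 2 in that of the non-stop experiment, where copy a had 12, 14 and 8. These FRT values are set side by side without a test. The 4 copies of Me28S-G1083 in Nop60B spanned a wide range of levels. In ada2b ovaries copy a had 15, 12 and 12 reads, against 7, 13 and 3 in FRT, and did not pass at 1.01 ± 0.39 (limma adjusted p = 0.0554), and copy b, with 30 reads in all in ada2b ovaries and 14 in FRT, was called at 1.03, a call lost without ada2b replicate 1 or 2 or without any of the FRT libraries (limma adjusted p = 0.0662 to 0.113), and also without a filter, without the trend, after quantile normalization and with limma voom (limma adjusted p = 0.0501 to 0.138). Copy d had 7, 6 and 2 reads in ada2b ovaries, against 0, 1 and 0 in FRT, at 1.46, and passed the filter only through the ada2b libraries. Copy c was under the filter in all 3 comparisons, and no test of a difference between copies was made.

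The members were next set beside their hosts, for the pairs in which both were tested. In ada2b ovaries the change of the member was above that of its host in 44 of 49 pairs, over 22 hosts. Many of these members passed the filter only through the ada2b libraries, and with an FRT mean of at least 1 RPKM the member lay above in 21 of 24 pairs, over 16 hosts. Across these 49 pairs, which share hosts and libraries, Pearson's r was 0.09 and Spearman's rho 0.11, given as a description. For the 14 pairs in ribosomal protein genes the members had a median of 1.92 and their 10 hosts a median of 0.28, and each of the 14 lay above its host, as did each of the 7 with an FRT mean of at least 1 RPKM. In RpL3, Me18S-A425 rose by 2.41, and the other 2 members passed the filter only through the ada2b libraries. RpL3 itself had 777, 829 and 802 RPKM in ada2b ovaries, against 1067, 1015 and 913 RPKM in FRT, and fell by 0.31 on the log2 scale (limma adjusted p = 0.0191). Set to a common median, none of the 10 hosts fell and 8 rose, with a host median of 0.54.

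The Uhg genes behaved unequally. Of 7 such hosts, 5 rose in ada2b ovaries, with a median of 1.08, and 22 of their 26 members lay above their host, or 10 of the 12 with an FRT mean of at least 1 RPKM. Uhg5 carries 10 members, of which 7 were tested, at 0.80 to 2.66, and 6 rose, 3 of them with an FRT mean of at least 1 RPKM. Uhg5 itself had 30.8, 15.5 and 16.3 RPKM in ada2b ovaries, against 5.57, 7.23 and 5.31 RPKM in FRT, at 1.58 ± 0.26 (limma adjusted p = 0.00184). The 3 members in Uhg3 were called at 1.44 to 2.82, but all 3 passed the filter only through the ada2b libraries. Of these Me28S-C2645a, the lowest, lost its call without ada2b replicate 2, FRT replicate 2 or FRT replicate 3 (limma adjusted p = 0.0552 to 0.072), and without a filter, after quantile normalization and with limma voom (limma adjusted p = 0.0503 to 0.0746). Uhg3 had 39.0, 24.5 and 30.3 RPKM in ada2b ovaries, against 39.8, 42.7 and 39.9 RPKM in FRT, and did not pass at -0.40 (limma adjusted p = 0.0587). The 3 members in Uhg7 rose by 1.07 to 1.59, 2 of them with an FRT mean of at least 1 RPKM, and Uhg7, at 156, 148 and 154 RPKM in ada2b ovaries and 151, 150 and 128 RPKM in FRT, did not pass at 0.10. These 3 also lie inside the ribosomal protein gene RpL23A on the same strand, and reads of RpL23A and Uhg7 may not be told apart. Whether the reads of a member were also counted for its host is not stated.

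In non-stop ovaries all 10 tested ribosomal protein hosts fell, with a median of -0.88, and their 13 tested members had a median of -0.36. All 13 lay above their host, and 2 of the 16 tested members in ribosomal protein genes passed the test downward. After quantile normalization 6 of the 10 hosts fell, with a median of -0.24. The members lay above their host in 32 of 42 pairs in the libraries labelled Ataxin-7, with medians of 0.10 for members and -0.08 for hosts.

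**Figure D4:**
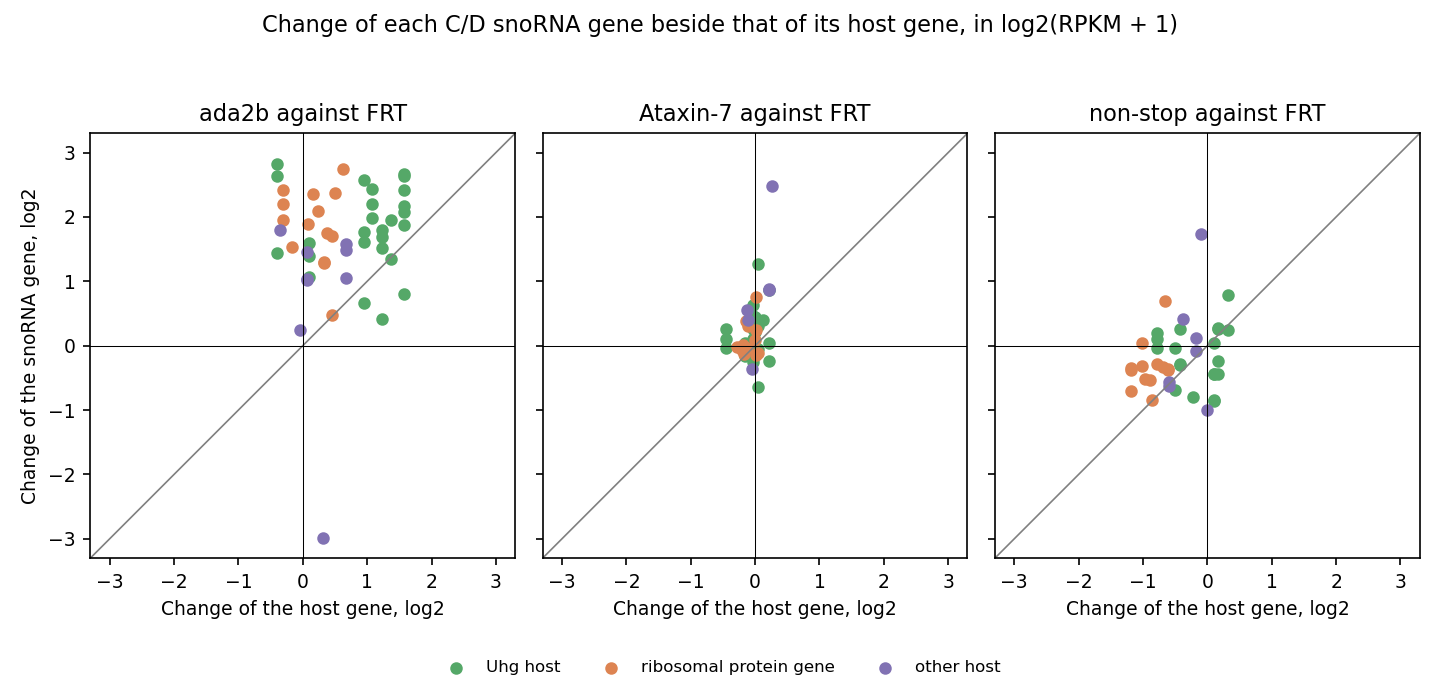
Change of each member (vertical axis) against the change of its host gene (horizontal axis), both in log2(RPKM + 1), for Uhg hosts, ribosomal protein genes and other hosts, with the line of equal change. In ada2b ovaries 44 of 49 points lie above the line and the low point is Me18S-C1968 in Swim; in non-stop ovaries the 13 ribosomal protein pairs lie above the line at negative host changes.

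Other small RNA classes gave a setting for these values. In ada2b ovaries 45 of 46 tested H/ACA snoRNA genes, the guides of pseudouridylation, rose with a median of 1.71, and 28 of 36 other snoRNA genes rose and 2 fell, with a median of 1.66. The members' 45 of 54 and median of 1.75 were close to these, and no test of the difference was made. With an FRT mean of at least 1 RPKM, 18 of 18 H/ACA genes and 9 of 12 other snoRNA genes rose, against 22 of 28 members. Of snRNA and scaRNA genes 2 of 13 rose and 2 fell. Replication-dependent histone mRNAs, which also lack a poly(A) tail, fell in 81 of 88 genes, with a median of -1.02. By their symbols the histone genes are many copies of a few kinds, and reads may be shared out between copies. The histone counts here and below are thus not of independent genes. The gene 7SLRNA:CR32864, for the RNA of the signal recognition particle, rose by 1.15 ± 0.29 (limma adjusted p = 0.012). RNaseP:RNA, for the RNA of the tRNA-trimming enzyme, rose by 1.27 ± 0.34 (limma adjusted p = 0.0141). Both were in a set of 5 further noncoding RNA genes, of which 4 were tested in ada2b ovaries. There 3 rose and 1 did not pass, at a lowest change of 0.11. All 3 genes of this set tested for Ataxin-7 rose too, by 0.76 to 0.89, while 1 of 5 rose and 1 fell in non-stop ovaries. In the libraries labelled Ataxin-7, 11 of 43 H/ACA genes and 20 of 21 snRNA and scaRNA genes rose, with medians of 0.35 and 1.28. Of 29 other snoRNA genes 10 rose and 2 fell there, and of 87 histone genes 0 rose and 11 fell. In non-stop ovaries 2 of 38 H/ACA genes rose and 1 fell, while 13 of 25 snRNA and scaRNA genes rose and 1 fell. Of 29 other snoRNA genes 6 rose and 6 fell there, and of 110 histone genes 48 rose and 0 fell.

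Of the proteins that bind C/D snoRNAs, 3 of the 4 core subunits were tested. Fib, the methyltransferase fibrillarin, had 139, 134 and 121 RPKM in ada2b ovaries, against 77.2, 69.5 and 66.7 RPKM in FRT, and rose by 0.87 ± 0.09 (limma adjusted p = 0.000218). Nop56 and nop5, the scaffold proteins around it, rose by 0.65 ± 0.08 and 0.77 ± 0.09 in ada2b ovaries (limma adjusted p = 0.000478 and 0.000391). None of the 3 core genes had overlapping groups there. Nop56 rose by 0.23 and nop5 by 0.24 in the libraries labelled Ataxin-7, and Fib did not pass at 0.04. In non-stop ovaries Fib changed by -0.49 and nop5 by -0.44, both called lower, and Nop56 did not pass at -0.03. After quantile normalization neither of these calls in non-stop ovaries held.

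Of 6 assembly factors, 4 fell and 1 rose in ada2b ovaries, and 3 fell under either other scaling. The assembly factor gene spag had 13.8, 18.9 and 18.2 RPKM in ada2b ovaries, against 44.8, 43.3 and 45.9 RPKM in FRT, and fell by 1.36 on the log2 scale (limma adjusted p = 0.00015). Nufip, an assembly platform, fell by 0.78, coil, the gene of coilin, by 0.53 and the ATPase gene pont by 0.25, whereas Nopp140, a nucleolar phosphoprotein, rose by 0.62. Of 15 genes of the nuclear exosome, RNA tailing, trimming and debranching, 10 rose and 2 fell in ada2b ovaries, with a median of 0.51, while 12 rose and none was called lower with libraries set to a common median. The exosome subunit Rrp40 rose by 0.73 and the nuclear poly(A) binding protein gene Pabp2 by 0.75, and the poly(A) polymerase gene Trf4-1 and the debranching enzyme gene ldbr fell by 0.54 and 0.43. In the libraries labelled Ataxin-7, 2 genes of this list rose and 4 fell, with the exosome subunit Rrp4 at -0.72. In non-stop ovaries 2 rose and 5 fell, with Rrp4 at -0.84.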

How the data were processed

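Poly(A) RNA of ovaries was sequenced from TruSeq Stranded libraries. The submitters' processing notes name CASAVA 1.8.2, TopHat2 2.0.13, edgeR 3.14.0 and build dm3, without roles. The deposited values are RPKM, which the authors made from reads per gene, a gene length and scaled library totals. The table gives no coordinates, and positions, hosts and symbols came from BDGP6.54 by gene identifier. For all 13903 genes above 0 the values were whole multiples of 1 read (tolerance 0.001 reads). Levels were normalized within each experiment. The test was limma 3.58.1 in R 4.3.3 (lmFit, eBayes with trend) on log2(RPKM + 1). Named members were the 5 highest in FRT, up to 4 that rose most and 4 that fell most per comparison among called genes without overlap, and those called in all 3 comparisons, with their hosts, the mutated genes and the core proteins. Others were named after their values were seen. For 3 libraries against 3 the smallest exact two-sided permutation p is 0.1, which every named member without overlap had. The fit was tested on simulated data. The alternatives changed the pseudocount to 0.1, left out the filter or raised it to a mean of 5 RPKM, and tried 2 scalings, no trend, a replicate block, one fit of 18 libraries, limma voom and leaving out each library. Members and lists were chosen with earlier results of these data known. A further 5 annotated members were not analysed here.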

Additional observations from a re-analysis of the deposited data

Results flagged for a closer look

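Changes of members were compared between experiments by the interaction, with limma on log2(RPKM + 1). In the interactions with ada2b a member could pass the filter through the ada2b libraries alone. The ada2b change differed from the non-stop change in 41 members of 52, 40 higher and 1 lower, where 70.6% of all genes differed. From the Ataxin-7 change it differed in 33 of 54, 32 higher and 1 lower, where 68.5% of all genes differed. The Ataxin-7 change was higher than the non-stop change in 3 of 48, where 37.5% of all genes differed, 16.8% higher and 20.7% lower. The difference of log2 changes, ada2b minus non-stop, was -4.72 for Me18S-C1968, 2.75 for Me18S-A425, 2.41 for Me28S-A2113, 3.20 for Me18S-C1831, 2.57 for Me28S-C2645c and 2.05 for Me28S-G2173. It was 3.10 for Me28S-G2703c, 1.11 for Me28S-G1083b, 3.50 for Me28S-C3227b, 2.78 for Me18S-U1356a and 2.63 for Me18S-G1620. Me18S-C1968 thus differed in the direction opposite to the other 10.

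Ada2b minus Ataxin-7, the difference was -5.46 for Me18S-C1968, 2.18 for Me18S-A425, 1.99 for Me28S-A2113, 2.09 for Me18S-C1831, 2.98 for Me28S-C2645c and 2.44 for Me28S-G2173. It was 2.41 for Me28S-G2703c, 1.39 for Me28S-C2645a, 2.89 for Me28S-C3227b, 1.73 for Me18S-U1356a and 1.50 for Me18S-G1620. Ataxin-7 minus non-stop, it was 0.94 for Me28S-G1083b and 1.05 for Me18S-U1356a. Me18S-C1968 passed the test in opposite directions in ada2b ovaries and in the other 2 comparisons, and no difference was called between Ataxin-7 and non-stop, at 0.74 ± 0.38 (limma adjusted p = 0.15). Me28S-C3227b had no read in the FRT libraries of the ada2b experiment, so that its 3.50 and 2.89 depend on the pseudocount and are no measured size.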

How the results depend on the processing

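Me18S-C1968 kept its direction and its call in all 3 comparisons with FRT under every alternative tried, at -3.50 to -2.73 in ada2b ovaries, 2.29 to 2.69 in the libraries labelled Ataxin-7 and 1.5 to 2.08 in non-stop ovaries. In ada2b ovaries 33 to 48 members rose under every alternative but the filter at a mean of 5 RPKM, which left 19 to test and 17 that rose. That filter also left 1 higher for Ataxin-7, 1 higher and 2 lower for non-stop, and 12, 10 and 0 higher for ada2b minus non-stop, ada2b minus Ataxin-7 and Ataxin-7 minus non-stop. Without a filter, 2 were higher for Ataxin-7, 2 lower for non-stop and 0 higher for Ataxin-7 minus non-stop. With limma voom, 1 was lower for non-stop, 20 higher for ada2b minus Ataxin-7 and 1 higher for Ataxin-7 minus non-stop. One fit of 18 libraries gave 1 higher and 0 lower for non-stop. Leaving out 1 library at a time gave 1 to 6 higher and 0 to 1 lower for Ataxin-7, 2 to 9 lower for non-stop, 19 to 34 higher for ada2b minus Ataxin-7, and 0 to 4 higher and 0 to 1 lower for Ataxin-7 minus non-stop. In the Ataxin-7 comparison the members' median changed sign, over a range of -0.044 to 0.431, at -0.017 without Ataxin-7 replicate 3 and -0.044 without FRT replicate 3. Why these counts moved was not tested, beyond the fewer genes tested under the stricter filter. Of 67 called changes of named genes, 25 lost the call under at least 1 alternative and 0 turned round.

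Mutant and FRT libraries share replicate numbers, but same-numbered libraries did not deviate together, with correlations of -0.06 to 0.10 in the ada2b, -0.38 to 0.06 in the Ataxin-7 and -0.13 to 0.13 in the non-stop experiment. With a replicate block 46 members rose and 1 fell in ada2b ovaries, 4 rose for Ataxin-7, and 2 rose and 8 fell for non-stop. The interactions had 41, 27 and 3 higher. Precision is limited by depth, since the median of all 73 members was 2.33 to 10 reads per library, depending on the group.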
